A study of Mus musculus with 9 samples.

Results

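Meis1, Meis2, Meis3, Pbx2, Pbx3 and Pknox1 encode TALE homeodomain proteins, the DNA-binding cofactors of Hox transcription factors, and open chromatin at these 6 genes, of 21883 protein-coding genes, was described in mouse LSK cells. LSK cells are bone marrow cells without lineage markers but with Sca-1 and Kit on their surface, a population of haematopoietic stem and progenitor cells. A peak was counted for a gene when its summit lay inside the gene's GRCm38 span, or within 50 kb of the span with that gene as the nearest protein-coding gene. Peaks of the 9 libraries that overlapped by at least 1 bp were merged, which gave 56 regions at the 6 genes among 76253 regions in all. Of these 56, Meis1 had 30, Meis2 had 16, Pbx3 had 5, Meis3 and Pbx2 had 2 each and Pknox1 had 1.

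The libraries were made by ATAC-seq, in which Tn5 transposase inserts adapters into accessible DNA. Wild type (WT), Bcat_KO (β-catenin), HOXA9_KO and PRMT1_KO had 2 libraries each, and dKO (β-catenin together with Hoxa9) had 1 and therefore no replicate error. The sample titles say KO while the genotype tags say knockdown, and the title names are used here. Transplanted Prmt1KO mice are the only source that the series text states, and the labels give for no group the age, the Cre or promoter behind the allele, or whether the cells of WT and the other mutants had been transplanted. Nor is it stated that replicate libraries were made from different animals, so a p-value here reflects only the spread among these samples. Peak lists do not measure expression, so the loss of the targeted genes was not checked here.

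Meis proteins bind DNA with Pbx proteins, and both form complexes with Hox proteins that raise the selectivity of Hox factors for their sites. Meis proteins and Pknox1 (also called Prep1) interact with Pbx proteins outside the homeodomain. Meis1 is needed for the maintenance of haematopoietic stem cells, and it cooperates with Hoxa9 in mouse models of acute myeloid leukaemia. Hoxa9 is a homeobox factor of stem and progenitor cells, β-catenin carries Wnt signals to target genes in the nucleus, and Prmt1 is an arginine methyltransferase.

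The sequence just before the transcript start is shown for 3 members whose starts ranged from open in all 8 libraries of the groups with a pair (Meis1) to open in 2 (Pbx2). RefSeq (GRCm38.p6) holds promoters of 4 of the 6 members, and Meis3, with 66.7% G and C, is not printed. Each line gives the 250 bases before the start, read 5′ to 3′ on the gene's strand. They come from chr11:19018970-19019219 on the minus strand for Meis1, chr2:116064620-116064869 on the minus strand for Meis2 and chr17:34592009-34592258 on the plus strand for Pbx2. Capitals mark the NF-Y motif CCAAT and the ETS motif CCGGAA on either strand.
Meis1: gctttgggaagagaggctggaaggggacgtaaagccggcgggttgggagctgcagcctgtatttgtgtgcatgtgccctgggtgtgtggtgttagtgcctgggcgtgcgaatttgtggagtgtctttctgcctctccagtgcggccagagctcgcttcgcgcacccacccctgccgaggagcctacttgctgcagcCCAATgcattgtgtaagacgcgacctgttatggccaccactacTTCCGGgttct
Meis2: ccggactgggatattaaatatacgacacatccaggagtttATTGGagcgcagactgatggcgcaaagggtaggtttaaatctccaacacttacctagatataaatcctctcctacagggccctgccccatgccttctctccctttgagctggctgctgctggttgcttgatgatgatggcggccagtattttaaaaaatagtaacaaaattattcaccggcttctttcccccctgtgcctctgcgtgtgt
Pbx2: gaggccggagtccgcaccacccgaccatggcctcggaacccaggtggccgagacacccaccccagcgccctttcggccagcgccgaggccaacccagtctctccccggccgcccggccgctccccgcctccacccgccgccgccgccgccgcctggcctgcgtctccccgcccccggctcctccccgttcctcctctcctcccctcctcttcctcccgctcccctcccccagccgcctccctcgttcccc
Over the whole 300-base windows, which also hold 50 bases after the start, G and C made up 58.3% at Meis1, 51.0% at Meis2 and 76.0% at Pbx2, and 3.1% of all 32851 promoters were as rich as Pbx2. CCAAT stood once in Meis1 and once in Meis2, and in 37.4% of all promoters. CCGGAA stood once in Meis1 and once in Meis3, and in 14.9% of all promoters. The other motifs searched on both strands had no match in the 4 windows. Of all promoters, 19.2% held the Meis motif TGACAG, 0.977% held TGATTTAT, a motif of Hox with Meis, and 0.746% held TGATTGAT, a motif of Pbx with Hox. A match to the blood factor motif AGATAA stood in 11.2%, and the Lef/Tcf motif CTTTGAT, through which β-catenin acts, was in 3.73% of promoters.

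The lists held 35581 and 28325 peaks in WT, 39881 to 45460 in the 6 libraries of the single mutants and 10639 for dKO. No peak on chromosome Y below 90 Mb was listed in WT, against 12 to 16 in the single mutants and 6 for dKO, so sex, or another difference in what these libraries hold of chromosome Y, and genotype cannot be told apart in comparisons with WT. The local background at the 500 weakest peaks was 1.11 and 1.35 reads in WT, 1.23 to 1.61 in the single mutants and 0.461 for dKO. Of 10 markers of LSK cells, 6 (Kit, Cd34, Runx1, Flt3, Lmo2 and Tal1) had a summit within 1 kb of a transcript start in all 8 libraries other than dKO, and Ly6a, which encodes Sca-1, had one in none. Each of these libraries had 7 to 9 open LSK markers, against 0 or 1 of 4 T cell markers, 0 to 2 of 5 mature myeloid markers, 1 to 3 of 5 erythroid markers and 1 or 2 of 4 stromal markers. Cd3e, Cd3d, Cd8a, Ly6g and Cdh5 were open in none of the 8.

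Meis1 carried far more summits than any other member. It had 13 and 9 for WT, 19 and 17 for Bcat_KO, 15 and 14 for HOXA9_KO, 19 and 16 for PRMT1_KO and 2 for dKO. The mean over the 8 libraries other than dKO was 15.2 ± 3.33 (SD, n = 8), and 0.238% of all genes, or 0.638% of the 2979 genes of 0.5 to 2 times its length, had as many. Meis2 had 5.0 ± 1.2 summits (SD, n = 8), matched by 6.4% of all genes and by 32.2% of genes of like length. Pbx3 had 2.5 ± 0.756, Pknox1 had 1 in every library, Meis3 had 0.75 ± 0.707 and Pbx2 had 0.25 ± 0.463 (SD, n = 8 each). The median gene had 1.0.

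**Figure D1:**
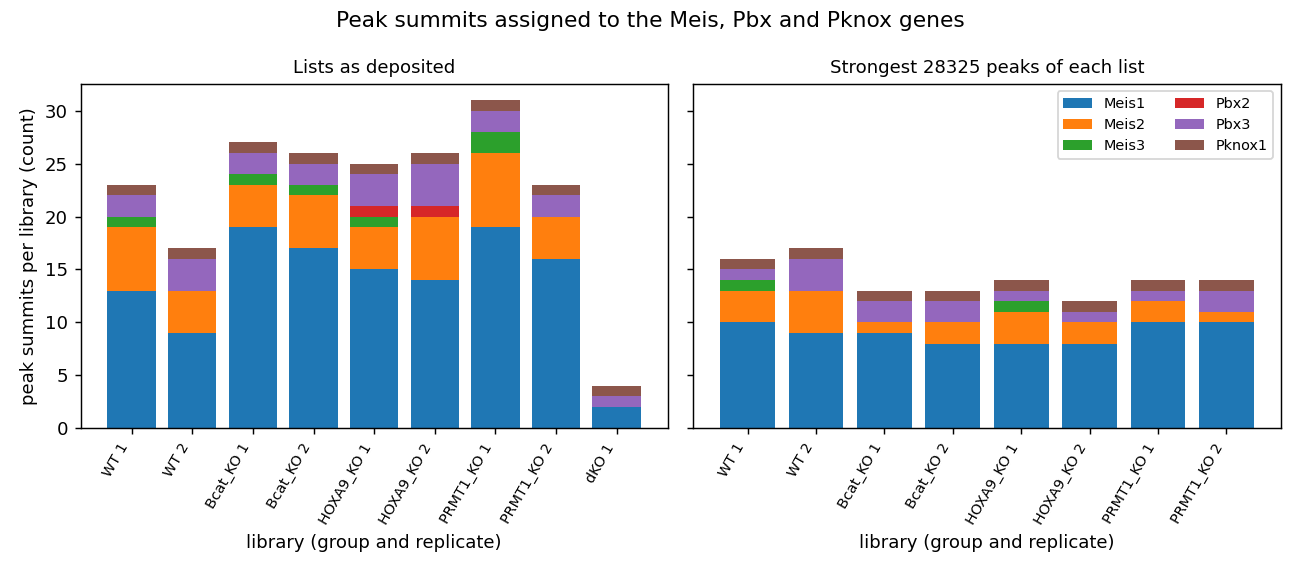
Stacked bars of peak summits per library (count), 1 bar per library with a colour for each gene, in the lists as deposited (left, 9 libraries) and in the 28325 strongest peaks of each list (right, without dKO). Meis1 makes up the largest block in every bar, with 9 to 19 summits on the left in the libraries other than dKO, and WT has the lowest totals of these 8 on the left but the highest on the right, with PRMT1_KO replicate 2 level with WT replicate 1 on the left.

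In the plot of summits per gene and library, the lowest totals, those of dKO and WT replicate 2, belong to the shortest lists. All 6 genes together had 23 and 17 summits in WT and 23 to 31 in the single mutants, or 0.6 to 0.646 and 0.572 to 0.696 per 1000 listed peaks, which overlap. When all lists were shortened to the 28325 strongest peaks by −log10 p, as many as the shortest one held, WT had 16 and 17 and the single mutants 12 to 14. The order of WT and mutants thus turned over with the length of the lists. Meis1 alone had 9.5 ± 0.707 for WT (n = 2) and 8.83 ± 0.983 over the 6 single mutants (SD) in the shortened lists, and these ranges overlap.

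Most of the 56 regions were weak. Of them, 25 (44.6%) were listed in 1 library only, against 33.0% of all regions, and 12 were listed in all 8 libraries other than dKO. In the shortened lists, 24 were present in at least 1 library and 8 in all 8, of which 6 belonged to Meis1 and 1 each to Pbx3 and Pknox1. Inside the genes lay 35 regions and outside them 21. The farthest region counted lay 44.2 kb from Meis2, with a fold of 2.98 in 1 library, and the nearest one past the 50 kb limit lay 83.7 kb from Meis1, with a fold of 3.02 in 1 library. Fold here is the authors' ratio of reads at the summit to the local background, with 1 added to each. The added 1 lowers the fold most where the background is low. Folds were not normalized between libraries, and ranks count from the strongest peak of a list.

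Meis1, on chromosome 11 from 18880428 to 19019651 on the minus strand, was the only member with several regions in all 8 shortened lists. Distances are given from its transcript start, positive in the direction of transcription. The region over the start (19018456 to 19019497) contains the printed promoter. Its fold was 7.64 and 9.26 for WT, 10.6 and 11.0 for Bcat_KO, 10.5 and 12.6 for HOXA9_KO, and 10.0 and 12.1 for PRMT1_KO. It ranked 7585 and 5307 for WT and 3503 to 4940 in the 6 single mutants, so that both WT libraries were below every mutant library, and it was not listed in dKO. Among 7481 regions at gene starts found in all 8 libraries, the mean rank of this region lay at percentile 39.6, counted from the strongest.

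Inside the gene, 2 regions had a higher fold than the start, one in all 8 libraries other than dKO and one in 7 of them, all but HOXA9_KO replicate 2. The region at +48.8 kb (18969868 to 18970642) had a fold of 10.4 and 10.8 for WT, 15.6 and 14.5 for Bcat_KO, 14.8 and 14.5 for HOXA9_KO, 15.0 and 16.3 for PRMT1_KO and 5.36 for dKO. Its rank was 5259 and 4939 for WT and 1836 to 3140 in the single mutants, with no overlap between WT and mutants. The region at +93.9 kb (18924668 to 18925585) had a fold of 12.4 and 10.1 for WT, 16.3 and 15.1 for Bcat_KO, 11.4 and 12.2 for HOXA9_KO, and 13.6 and 18.1 for PRMT1_KO. It ranked 3655 and 5683 for WT, 1735 and 3369 for Bcat_KO, 6275 and 6171 for HOXA9_KO, and 3514 and 1283 for PRMT1_KO. By this rank HOXA9_KO lay below all 6 other libraries, and dKO had no peak. The order turned with the measure: as a share of its own full list, HOXA9_KO stood at 15.7% and 14.9% from the top, between WT at 10.3% and 20.1%, and its mean fold was 11.8 ± 0.609 against 11.2 ± 1.67 in WT (SD, n = 2 each). This region was picked after its values were seen, as were those at −1.57, +10.9, +61.0 and +135.3 kb below.

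The Meis1 region with the lowest p over the 4 groups lay at +69.9 kb (18948723 to 18949568). Its fold was 5.23 and 4.21 for WT, 8.65 and 9.33 for Bcat_KO, 7.77 and 9.72 for HOXA9_KO, and 8.27 and 7.48 for PRMT1_KO. These values came from 15 and 8 reads at the summit in WT and 20 to 29 in the mutants, over backgrounds of 2.06 reads in WT replicate 1, less in WT replicate 2, and 1.79 to 2.47 in the mutants. It ranked 19626 and 25021 for WT and 10435 to 16413 in the single mutants, so both WT libraries stood below all 6 mutant libraries.

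**Figure D2:**
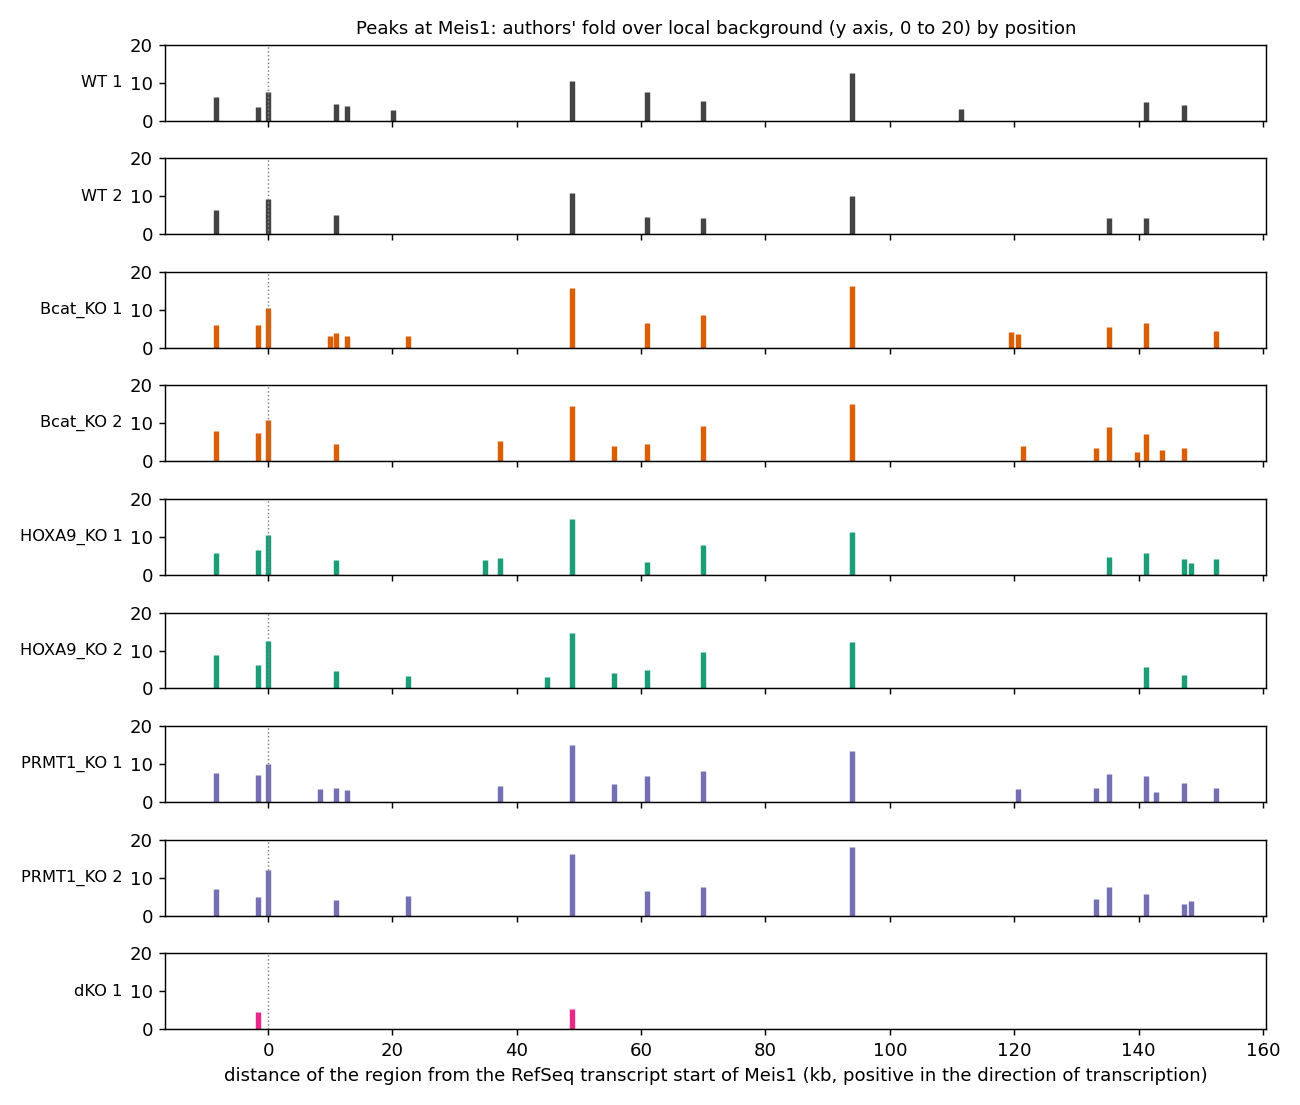
Peaks along Meis1, 1 row per library, with a bar at each region's distance from the transcript start (kb, dotted line at the start) and the authors' fold over local background as its height. In the libraries other than dKO bars stand at the start, +48.8, +69.9 and +93.9 kb, and dKO has bars at −1.57 and +48.8 kb alone.

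The map of Meis1 by distance shows further regions around the start and past the gene end. At −1.57 kb (19020374 to 19021023) the fold was 3.65 in WT replicate 1, absent in WT replicate 2, 5.89 and 7.36 for Bcat_KO, 6.44 and 6.06 for HOXA9_KO, 7.08 and 4.8 for PRMT1_KO and 4.63 for dKO. This region ranked 24773 in the WT library that listed it and 10186 to 21649 in the mutants, and 7656 in the shorter list of dKO. The regions at −8.46 kb and at +141.2 kb, which is 2.69 kb past the gene end, were found in all 8 libraries. By rank, Bcat_KO lay above both WT libraries at +141.2 kb. At −8.46 kb the order of PRMT1_KO and WT turned with the measure, since PRMT1_KO lay below both WT libraries by rank and above both by fold. The other mutants overlapped WT by rank at these regions. By fold, every mutant library at +141.2 kb (5.54 to 7.19) lay above both WT libraries (4.87 and 4.17), so the order turned with the measure there too. At −8.46 kb the mean fold was 6.17 ± 0.129 for WT, 7.0 ± 1.36 for Bcat_KO, 7.31 ± 2.17 for HOXA9_KO and 7.33 ± 0.421 for PRMT1_KO (SD, n = 2 each). At +141.2 kb it was 4.52 ± 0.498, 6.8 ± 0.549, 5.68 ± 0.199 and 6.3 ± 0.729 in the same order.

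The weaker Meis1 regions came and went between libraries. The region at +61.0 kb was listed in all 8, and after shortening it was missing from both HOXA9_KO libraries and from Bcat_KO replicate 2. Its fold was 4.23 ± 1.06 for HOXA9_KO and 5.5 ± 1.42 for Bcat_KO, against 6.03 ± 2.09 for WT and 6.64 ± 0.239 for PRMT1_KO (SD, n = 2 each). At +10.9 kb the fold was 4.78 ± 0.539 for WT and 3.93 ± 0.413 to 4.32 ± 0.391 in the mutants, and after shortening only WT kept it. Before shortening all 8 libraries listed this region, and the folds of single libraries overlapped. As a share of its full list, WT stood at 75.3% and 71.6% from the top, within the 68.0% to 86.7% of the mutants. At +135.3 kb a peak was absent from WT replicate 1 and HOXA9_KO replicate 2, and the fold was 7.39 ± 0.156 for PRMT1_KO (n = 2). At +147.4 kb, 8.83 kb past the gene end, a peak was listed in 6 libraries, with 4.03 in the WT library and 4.1 ± 1.38 in PRMT1_KO (n = 2). The remaining 19 Meis1 regions were listed in at most 5 of the 8 libraries, with folds of 2.51 to 5.4.

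Meis2 encodes a close relative of Meis1 and lies on chromosome 2 from 115861264 to 116067537 on the minus strand. None of its 16 regions was in all 8 shortened lists, and 9 were in 1 library only. At the transcript start, a peak was listed in WT replicate 1 with a fold of 3.47 and in Bcat_KO replicate 2 with 3.05. At +0.42 kb, peaks were listed in WT with 3.71 and 3.72 and in PRMT1_KO with 3.49 and 3.92, and in no Bcat_KO or HOXA9_KO library. The most widely shared Meis2 region, at −2.56 kb from the transcript start used here, lay inside the gene's span, 0.36 kb from its 5′ boundary. It had a fold of 4.04 and 4.74 for WT, 3.34 and 7.77 for Bcat_KO, 4.94 and 4.28 for HOXA9_KO, and 5.57 and 4.27 for PRMT1_KO. The Bcat_KO libraries lay at both ends of that range, so the groups overlapped.

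Of the distal Meis2 regions, 2 were listed in 5 mutant libraries each and in neither WT library. At +14.8 kb the fold was 6.04 and 4.02 for Bcat_KO, 9.71 and 7.74 for HOXA9_KO and 3.84 in PRMT1_KO replicate 1. At +208.6 kb, which is 5.27 kb past the gene end, it was 9.88 in Bcat_KO replicate 2, 7.97 and 6.26 for HOXA9_KO, and 7.0 and 7.05 for PRMT1_KO. WT had the shortest lists of these groups, and whether its depth had a part in the missing peaks was not tested.

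**Figure D3:**
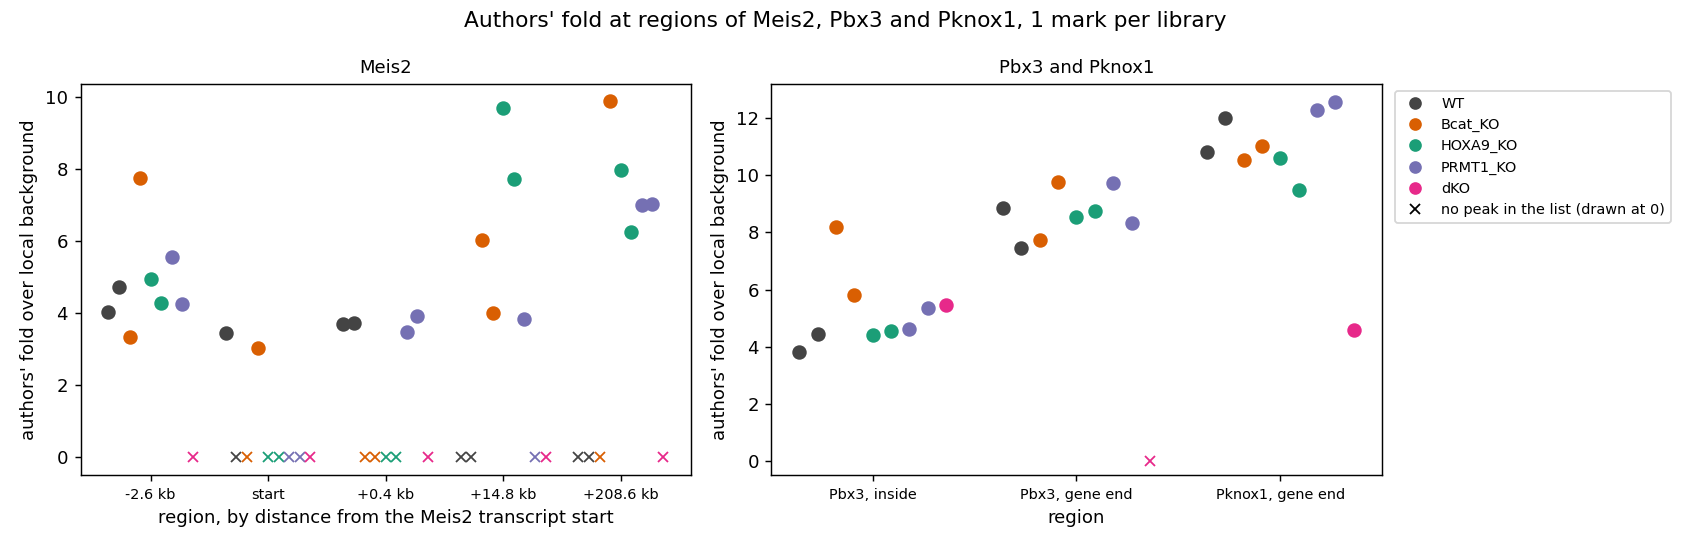
The authors' fold over local background at named regions of Meis2 (left) and of Pbx3 and Pknox1 (right), 1 mark per library, with a cross at 0 where a library lists no peak. The Meis2 regions at +14.8 and +208.6 kb have no WT peak. At the Pbx3 and Pknox1 gene ends (span boundaries, strand not given) every library other than dKO has one.

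Meis3, a paralogue of Meis1 and Meis2, is a short gene on chromosome 7 from 16174012 to 16186510 on the plus strand. A peak at its start was listed in WT replicate 1 with a fold of 4.68, in both Bcat_KO libraries with 4.38 and 4.94, in HOXA9_KO replicate 1 with 5.67 and in PRMT1_KO replicate 1 with 4.85. Within 3 of the 4 groups, 1 library listed it and the other did not. The other Meis3 region was listed in PRMT1_KO replicate 1 only, with a fold of 2.86.

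Pbx2 and Pbx3 encode Pbx proteins, which bind DNA as partners of both Meis and Hox proteins. Pbx2, on chromosome 17 from 34592259 to 34597400 on the plus strand, had a peak at its start in HOXA9_KO replicate 2 with a fold of 4.29 and one nearby in HOXA9_KO replicate 1 with 2.89. No other library listed a peak there. Of 860 gene starts with at least the G and C share of Pbx2, 75.9% were open in all 8 libraries and 7.91% in 2 or fewer, as Pbx2 was. Among all 21262 starts, 48.3% were open in all 8 and 36.1% in none. The start was open within 1 kb in 8 of 8 libraries for Meis1, 5 for Meis2, 5 for Meis3 and 2 for Pbx2. The count for Meis2 leaves out its region at −2.56 kb, near the 5′ boundary of the span.

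For Pbx3 and Pknox1 no strand was available, so gene end means a boundary of the span and may be the transcript start. Pbx3, on chromosome 2 from 34171457 to 34372045, had a region at its gene end at 34372027 to 34373337. Its fold was 8.84 and 7.46 for WT, 7.73 and 9.74 for Bcat_KO, 8.54 and 8.74 for HOXA9_KO, and 9.71 and 8.32 for PRMT1_KO. By rank it stood at 7757 and 9505 for WT and 9833 to 13771 in the single mutants, so WT was above all mutants by rank. The folds overlapped, and so did the positions as a share of each full list, at 21.8% and 33.6% from the top in WT and 22.1% to 32.9% in the mutants. A weak region inside the gene, 11.81 kb from that end (34359910 to 34360615), had a fold of 3.83 and 4.43 for WT, 8.2 and 5.81 for Bcat_KO, 4.41 and 4.55 for HOXA9_KO, 4.61 and 5.35 for PRMT1_KO and 5.48 for dKO. Both Bcat_KO libraries were above the other 6 by fold, but by rank WT replicate 2 (24030) was above Bcat_KO replicate 2 (26774). The dKO value rested on 7 reads over a background of 0.461. The other 3 Pbx3 regions were listed in 1 or 2 libraries, with folds of 3.45 to 4.55.

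Pknox1 lies on chromosome 17 from 31564722 to 31607693 and had a single region, at a gene end (31564170 to 31565455), in all 9 libraries. Its fold was 10.8 and 12.0 for WT, 10.5 and 11.0 for Bcat_KO, 10.6 and 9.49 for HOXA9_KO, 12.3 and 12.6 for PRMT1_KO, and 4.58 for dKO. It ranked 3185 and 2310 for WT, 4780 and 5363 for Bcat_KO, 4605 and 8346 for HOXA9_KO, 3071 and 3471 for PRMT1_KO, and 7762 for dKO. Bcat_KO and HOXA9_KO were below both WT libraries by rank, and PRMT1_KO overlapped WT. By fold HOXA9_KO was again below both WT libraries, but Bcat_KO overlapped WT and PRMT1_KO lay above both.

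Differences between groups were tested where a region was in all 8 shortened lists, with limma on the normal score of the rank. On this scale a score of 0 is the middle of the list and a score of 1 is a peak weaker than 15.9% of the list. The fit held 15951 regions, among them 8 of the members, and p-values were adjusted over all 15951 by Benjamini-Hochberg. None of the 8 passed an adjusted p of 0.05 in any of 6 comparisons by limma, and the adjusted p ran from 0.0921 to 0.995. Over all regions, the share that passed was 0.0125% in Bcat_KO against WT, 0.357% in HOXA9_KO against WT and 0.00627% in PRMT1_KO against WT. It was 0.0% in HOXA9_KO against Bcat_KO and in PRMT1_KO against Bcat_KO, and 0.489% in PRMT1_KO against HOXA9_KO. The numbers behind these shares were not stable. With a replicate block in the fit, the 57 of HOXA9_KO against WT and the 78 of PRMT1_KO against HOXA9_KO both became 0. Both numbers also fell whenever 1 library was left out. Where that library came from a group outside the comparison, the differences stayed as they were and only the estimate of the spread changed.

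Without adjustment, p was under 0.05 for 2 of 8 member regions in each comparison with WT, where 16.7% (Bcat_KO), 17.9% (HOXA9_KO) and 14.3% (PRMT1_KO) of all regions had such a p. Among mutants it was 1 of 8 in HOXA9_KO against Bcat_KO (all regions 9.86%), 0 of 8 in PRMT1_KO against Bcat_KO (7.59%) and 1 of 8 in PRMT1_KO against HOXA9_KO (14.9%). The 3 comparisons with WT share the WT libraries, so their values are given side by side. The median score difference of the 8 regions was 0.31 for Bcat_KO, 0.0 for HOXA9_KO and 0.3 for PRMT1_KO, beside −0.02, −0.03 and −0.02 over all regions.

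The Meis1 region at +69.9 kb had the largest differences of the 8. By limma its score was higher than in WT by 1.11 (SE 0.24, adjusted p 0.101) in Bcat_KO, by 1.02 (SE 0.24, adjusted p 0.0921) in HOXA9_KO and by 0.71 (SE 0.24, adjusted p 0.255) in PRMT1_KO, with 2 libraries a group. At +48.8 kb the score differences from WT were 0.47, 0.40 and 0.46 (SE 0.18), with limma's adjusted p at 0.249, 0.284 and 0.3. At the Meis1 start they were 0.23, 0.38 and 0.27 (SE 0.18), and limma's adjusted p was 0.532, 0.303 and 0.516. At +93.9 kb HOXA9_KO was below Bcat_KO by a score difference of −0.59 (SE 0.23, limma adjusted p 0.469), and PRMT1_KO was above HOXA9_KO by 0.65 (SE 0.23, limma adjusted p 0.248). For Pknox1, HOXA9_KO differed from WT by −0.54 (SE 0.2, limma adjusted p 0.21). At the Pbx3 gene end the differences from WT were −0.32, −0.25 and −0.27 (SE 0.2), and limma's adjusted p was 0.453, 0.545 and 0.573.

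**Figure D4:**
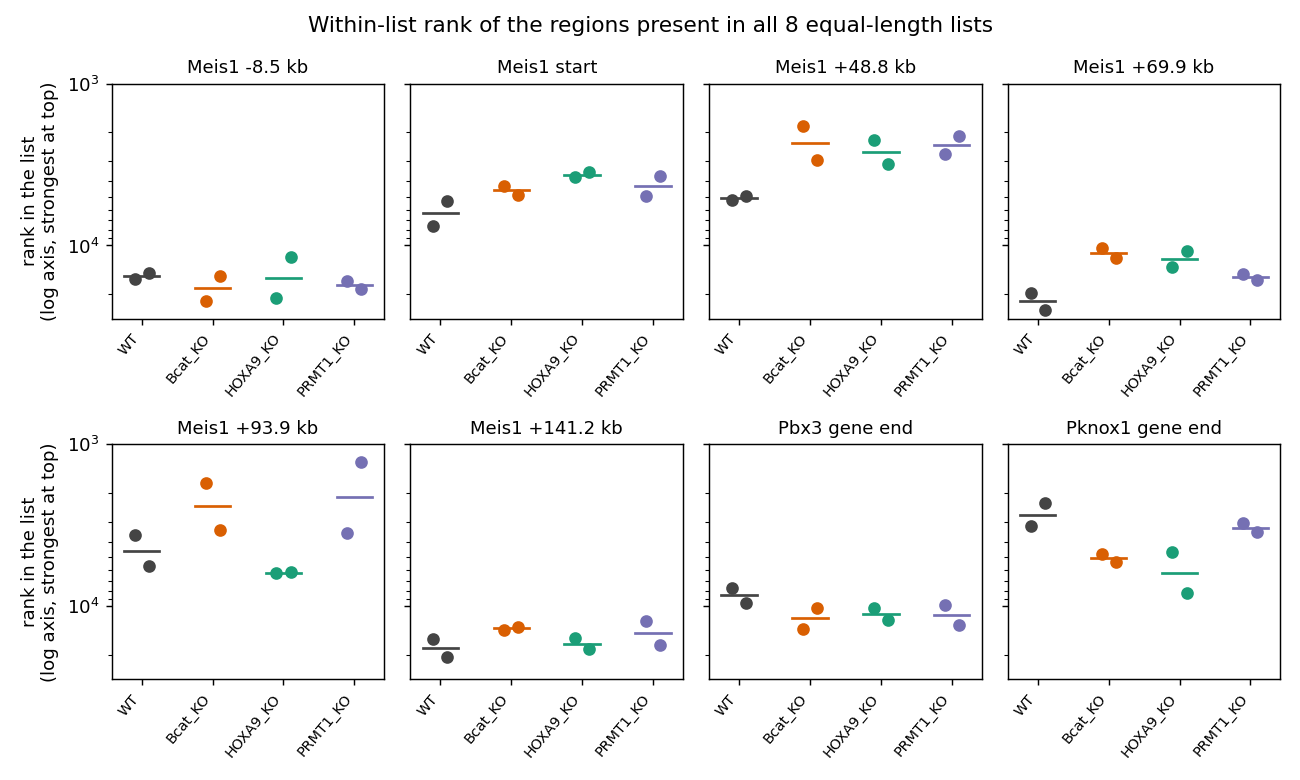
Rank within the list (log axis, strongest at the top) of the 8 regions of Meis1, Pbx3 and Pknox1 found in all 8 shortened lists, 1 mark per library, with a bar at the geometric mean of each group of 2. At Meis1 +69.9 and +48.8 kb and at the Meis1 start both WT libraries lie below all mutant libraries, and at the Pbx3 gene end they lie above them by this rank, though not as a share of the full lists.

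The plot of ranks by region shows where WT stood apart. Of the 8 regions, 3 were higher in all 6 single-mutant libraries than in both WT libraries (Meis1 at the start, +48.8 and +69.9 kb), where 8.57% of all regions were. By rank the Pbx3 gene end was lower in all 6, as were 9.73% of all regions. Sex chromosome content and list length also separate WT from the mutants, and their part in these ranks cannot be told apart from genotype.

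A second reading asked whether regions opened or closed. A region was called closed when it was among the first 14162 peaks of both reference lists and outside the first 28325 peaks of both others, and opened in the reverse case. None of the 24 member regions in the shortened lists was called by this rule, which gives no p. The share of all 46847 regions called was 0.352% in Bcat_KO against WT, 0.606% in HOXA9_KO against WT, 0.258% in PRMT1_KO against WT, 0.199% in HOXA9_KO against Bcat_KO, 0.0683% in PRMT1_KO against Bcat_KO and 0.566% in PRMT1_KO against HOXA9_KO.

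By presence alone, in both shortened lists of one group and neither of the other, a few weak regions were called. Against WT, HOXA9_KO had 2 of 24 higher (all regions 5.33%), which were Meis2 at +14.8 and +208.6 kb. It had 3 lower (4.12%), which were Meis1 at +10.9 and +61.0 kb and Meis2 at +0.42 kb. Both of these Meis1 regions were listed in all 8 libraries before shortening. Bcat_KO had 2 lower (3.54%) and PRMT1_KO 2 lower (3.27%), in each case Meis1 at +10.9 kb and Meis2 at +0.42 kb, where the PRMT1_KO fold was 3.71 ± 0.301 beside 3.72 ± 0.00694 in WT (SD, n = 2 each). PRMT1_KO had 1 higher (4.22%), Meis2 at +208.6 kb. Between mutants, the inner Pbx3 region was lower in HOXA9_KO than in Bcat_KO (1 of 24, all regions 3.1%). PRMT1_KO had 1 higher than HOXA9_KO (5.16%), Meis1 at +61.0 kb, and 1 lower (4.54%), Meis2 at +14.8 kb.

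The peak names of the dKO list carry another style of run name than those of the other 8 lists, so sequencing run and genotype cannot be told apart for dKO. It was compared after the other 8 lists were shortened to its 10639 peaks. Of 6633 regions then found in all 8, 77.5% (95% Wilson interval 76.5 to 78.5%, counting error only) were in dKO. Of 4 such member regions, Meis1 at +48.8 kb and Pknox1 were in dKO, and Meis1 at +93.9 kb and the Meis1 start were not. Conversely, 26.3% (25.4 to 27.1%) of the 10479 dKO regions were in none of the 8, and of the 4 member regions of dKO this held for the inner Pbx3 region. That region ranked 5480 for dKO and had a median rank of 29289 elsewhere, and 10.9% of 985 dKO regions within 500 ranks of it were as weak elsewhere. In the lists as deposited, 10261 gene starts were open in all 8 libraries, and 60.1% of these were open in dKO. That share rests on lists of unequal length, unlike the 77.5% above.

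Other genes of the pathway were counted from lists of genes chosen for their roles, with earlier results of these data known. Of 5 further TALE and linked genes (Pbx4, Pknox2, Tgif1, Tgif2 and Pbxip1), with 4 regions in the fit, none passed limma's adjusted p in any comparison, and 0 or 1 had an unadjusted p under 0.05. A region of Tgif1, a TALE repressor of TGF-β signalling, was called closed in HOXA9_KO against WT and opened in PRMT1_KO against HOXA9_KO, 1 of 15 regions judged in each, where 0.606% and 0.566% of all regions were called. Neither call was made with the lists as deposited or at a −log10 q of at least 5. It lies at chr17:70832518-70833024, and its fold was 7.4 and 6.52 for WT, 7.3 and 6.34 for Bcat_KO, 4.75 and 4.98 for HOXA9_KO, and 8.01 and 10.7 for PRMT1_KO. HOXA9_KO was the lowest pair. Of the Hox partners, 10 genes of the Hoxa and Hoxb clusters, 9 had a region and none of 9 regions judged was opened or closed, and none was in the fit.

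Of 12 genes known to be bound by or to depend on Meis1 and Hoxa9 in blood cells, all had regions, 30 in the fit and 122 judged for opening. In PRMT1_KO against HOXA9_KO, 1 region of the receptor tyrosine kinase Flt3 passed, 1 of 122 was opened at the cell cycle kinase Cdk6 (0.566% of all regions called), none was lower, and 14 of 30 had an unadjusted p under 0.05 by limma, against 14.9% of all regions. The median score difference of the 30 was 0.26, beside −0.01 over all regions. These shares are a description and no test of the list. The list was chosen with earlier results of these data known, and some of its regions belong to the same gene. The Flt3 region (chr5:147392551-147393213) had a fold of 6.42 and 5.71 for WT, 9.03 and 7.92 for Bcat_KO, 4.9 and 5.53 for HOXA9_KO, and 9.49 and 11.3 for PRMT1_KO, and its score was higher in PRMT1_KO than in HOXA9_KO by 1.89 (SE 0.22, limma adjusted p 0.0274). Under 8 of 12 alternatives limma's adjusted p was no longer under 0.05, at 0.0565 with the replicate block and 0.053 to 0.104 without 1 library (except HOXA9_KO replicate 2), and the difference was 1.69 to 2.09. The Cdk6 region (chr5:3497245-3498045) had 5.23 and 3.84 for WT, 3.56 and 6.01 for Bcat_KO, 3.98 and 4.22 for HOXA9_KO, and 8.68 and 6.77 for PRMT1_KO. PRMT1_KO was above all other libraries at both. The Cdk6 call was not made with the lists as deposited or at a −log10 q of at least 5. In the other 5 comparisons no region of this list passed limma's adjusted p. An unadjusted p under 0.05 was found for 4 of 30 in Bcat_KO against WT (all regions 16.7%), 3 in HOXA9_KO against WT (17.9%) and 12 in PRMT1_KO against WT (14.3%). It was found for 9 in HOXA9_KO against Bcat_KO (9.86%) and 2 in PRMT1_KO against Bcat_KO (7.59%).

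Over the 8 libraries, the gene starts whose scores followed the Meis1 start most closely, among 7481, were those of Zfp810 (Pearson r 0.972), Cyth4 (0.953) and Rab40c (0.947). For the Pbx3 gene end they were Zhx3 (0.965), Ncoa7 (0.963) and Smarca5 (0.961). The 8 points share groups and list lengths, and 0.281% and 0.307% of all starts had an r over 0.9 with Meis1 and Pbx3.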

How the data were processed

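ATAC-seq peaks of 9 LSK libraries were analysed, grouped by the genotype in the sample titles. Per the submitters' processing notes, the authors used Bowtie2 2.4.2, SAMtools 1.14, Picard 2.27.4 and MACS2 with GRCm38/mm10, and 1 peak list per library was deposited. For each peak the deposited lists give a fold enrichment, a ratio of the summit pileup to the local background with 1 added to each. They also give a −log10 p-value, a −log10 q-value, a score derived from q, and another value, the offset of the summit within the peak. They were not normalized between libraries. Fold and p together fix the reads at a summit when these are taken as whole numbers. A whole number of reads gave back −log10 p within 0.01 for 100.0% of 2000 peaks checked per library. Peaks with a very high −log10 p were not drawn for this check. Depth per library is therefore given as reads over background.

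Peaks were merged with a minimum overlap of 1 bp, and ranks by −log10 p were compared in lists of equal length (28325). Regions found in all 8 lists of the groups with a pair were fitted with limma 3.58.1 in R 4.3.3 on normal scores, in a single fit of 4 groups with Benjamini-Hochberg adjustment over 15951 regions, and the scripts were tested on simulated data. Python 3.11.15 with pandas 2.3.3, numpy 2.4.6, scipy 1.17.1 and matplotlib 3.10.9 did the rest. With 2 libraries against 2, an exact two-sided permutation test of 1 region cannot go below 0.333. Precision is limited by the 2 libraries per group. Wilson intervals cover counting error only.

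For each member, the region at an annotated transcript start (or, for Pbx3 and Pknox1, at a gene end), the strongest other region, every region called and the region with the lowest F-test p were named, besides regions stated as picked later. The count over the B cell markers is not reported here. The members and lists were chosen with earlier results of these data known. Alternatives were a 10 kb window, lists as deposited, a −log10 q of at least 5, no filter on regions and log2 of the rank. Others were windows reaching 150 bp to each side of summits, a presence rule and summits inside the gene only. A replicate block and leaving out each library were also tried.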

Additional observations from a re-analysis of the deposited data

Results flagged for a closer look

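At the Meis1 region at +93.9 kb, groups lay on opposite sides of WT by rank. Both Bcat_KO libraries were stronger and both HOXA9_KO libraries weaker than both WT libraries, with median ranks 3671 apart. Both PRMT1_KO libraries were stronger as well, with a median rank 3824.5 from that of HOXA9_KO. The pattern rests on the rank among equally long lists: as a share of its full list HOXA9_KO (15.7% and 14.9% from the top) lay between the WT libraries (10.3% and 20.1%). The direct tests did not pass, with limma's Benjamini-Hochberg adjusted p at 0.469 and 0.248.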

How the results depend on the processing

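At 0 called member regions per comparison in the limma fit, dropping the filter on regions gave 2 each in Bcat_KO, HOXA9_KO and PRMT1_KO against WT, Meis1 at +10.9 kb (score difference −3.05) and Meis2 at +0.42 kb (−2.84), with limma's adjusted p from 0.00168 to 0.0123, where 3.99%, 5.39% and 3.83% of all regions passed. In that fit absent peaks share one score, which gives some regions no variance. The region at +10.9 kb was listed in all 8 full lists. As a share of these, WT (75.3% and 71.6% from the top) lay within the mutants (68.0% to 86.7%). Replicate numbers did not pair the libraries (correlations −0.00962 to 0.0356), and with a replicate block 0 member regions passed in every comparison. Over all regions, HOXA9_KO against WT went from 57 calls to 803 with log2 ranks, 2525 with no filter and 0 with the block.

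For opened or closed regions, also 0 in each comparison, the presence rule gave 2 (Bcat_KO against WT), 5 (HOXA9_KO against WT), 3 (PRMT1_KO against WT), 1 (HOXA9_KO against Bcat_KO) and 2 (PRMT1_KO against HOXA9_KO), beside 7.95%, 9.45%, 7.5%, 6.4% and 9.7% of all regions. The lists as deposited gave 1 in HOXA9_KO and 1 in PRMT1_KO against WT, at Meis2 +14.8 and +208.6 kb, beside 0.98% and 0.704% of all regions. Leaving out 1 library gave 0 to 1 in Bcat_KO against WT (Meis2 at +208.6 kb, without Bcat_KO replicate 1, all regions 0.911%), 0 to 2 in HOXA9_KO against WT (without HOXA9_KO replicate 2, all regions 1.33%, or 1 without WT replicate 2, 1.42%) and 0 to 1 in PRMT1_KO against HOXA9_KO (without HOXA9_KO replicate 2, 1.24%). Mean summits at the members over 8 libraries were 14.1 in shortened lists, 24.8 as deposited, 10.0 at a −log10 q of at least 5, 8.25 inside the genes only, and 13.7 to 14.4 without 1 library. The 8 region comparisons with an unadjusted limma p under 0.05 in the main fit were refitted under these settings. Their 101 values kept their direction, and the lowest limma adjusted p was 0.0598, with log2 of the rank. Many of these values could not turn. Dropping the filter, adding the replicate block or leaving out a library of another group leaves the difference as it was, so the kept direction is no support. The settings tried on the Flt3, Tgif1 and Cdk6 regions were chosen after seeing the data. Weak regions rest on as few as 6 reads, so absence means not detectable at that depth.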
